A study of Rattus norvegicus with 9 samples.

Results

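The microRNA miR-320 was followed through striatal small RNA libraries of rats dosed with manganese. Its members were chosen by name, as the entries rno-miR-320-5p and rno-miR-320-3p, which are 2 of the 1759 entries and 2 of the 764 miRNA entries counted in every library. Each of 3 groups had 3 libraries of striatum (9 in all), the input nucleus of the basal ganglia. MMT rats (Rattus norvegicus) were gavaged with methylcyclopentadienyl manganese tricarbonyl, an organic fuel additive, at 4 mg/kg in corn oil, which is about 1 mg of manganese per kg. MnCl2 rats, the positive control, were given manganese chloride tetrahydrate at 200 mg/kg in saline, in a volume of 10 ml/kg. Control rats were given corn oil alone at 1 ml/kg. Dosing was once a day on 6 days a week for 8 weeks in all groups, in rats 8 weeks old at the start. Saline was used in the MnCl2 group only, so compound and vehicle cannot be told apart there. The series held 18 rats of both sexes. The labels do not give the sex of each library, nor whether a library was 1 rat or a pool, and p-values therefore cover the spread among the 9 libraries and may not cover that among animals.

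Most miRNAs are cut from a long transcript by the nuclear enzyme Drosha with its partner DGCR8, and then by Dicer in the cytoplasm. The miR-320 hairpin leaves out the first step. In mouse and human cells it is transcribed directly as a short, capped hairpin that Exportin-1 carries out of the nucleus and Dicer cuts. The arm from the 5′ end then keeps the cap, and in those cells the 3p arm is the one described as the working strand. RefSeq (assembly GRCr8) lists the rat gene as Mir320a, whose neighbours are Polr3d, which encodes a subunit of RNA polymerase III, and a lncRNA gene. Small RNA counts do not measure which enzyme cut a hairpin, so the route was not tested here.

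Both arms are shown because every result below is a level of one of them or their ratio. They are given 5′ to 3′ in DNA letters as in the deposited files, with the seed (bases 2 to 8, which pair with a target mRNA) in capitals.
rno-miR-320-5p: gCCTTCTCttcccggttcttcc
rno-miR-320-3p: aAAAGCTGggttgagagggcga
Each arm is 22 bases long, with 13 G or C bases in miR-320-5p and 12 in miR-320-3p, so their counts can be compared without a length correction. The seeds differ from each other, and 0 other listed miRNAs carried either seed. A run of 16 bases of either arm, or of its reverse complement, was found in 0 other entries. The longest run common to both arms was 4 bases, on the same strand as well as against the reverse complement.

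The libraries held 583045 to 2012769 counts. Neuronal content was checked with 5 neuronal miRNAs, among them miR-124-3p and miR-128-3p, which do not tell the striatum from other brain regions. Their summed level ran from 46748 to 62355 CPM in MMT, from 48522 to 61945 CPM in MnCl2 and from 46456 to 63560 CPM in control libraries. CPM here is the count relative to the library total (counts per 1000000), scaled between libraries by TMM. The summed level of 2 choroid plexus miRNAs, from 219.8 to 1936 CPM in MMT, 243.5 to 1172 CPM in MnCl2 and 356 to 1050 CPM in control libraries, varied far more between libraries, and its part in the results was not tested. For 4 erythrocyte miRNAs the sum was 81.8 to 87.9, 72.4 to 185 and 68.4 to 116 CPM in MMT, MnCl2 and control libraries. For 3 muscle miRNAs it was 65.4 to 163, 98.2 to 210 and 76.8 to 125 CPM. Their part was not tested either.

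Nearly all miR-320 counts came from the 5p arm. Over the 9 libraries miR-320-5p had 2327 counts and miR-320-3p had 63, a ratio of 36.9 and a 5p share of 97.4%. By mean level, 238 CPM against 6.76 CPM, miR-320-5p ranked at 145 and miR-320-3p at 628 of 764 miRNA entries. The arm described as the working strand in human and mouse cells was therefore the scarce one in these counts. How well each arm ligates to adapters or aligns is not given in the sources used here, and its part in the ratio was not tested.

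In the MMT libraries the 5p share of miR-320 counts was 98.9% in MMT 1 (264 counts of both arms, exact 95% binomial interval 96.7% to 99.8%), 93.5% in MMT 2 (124 counts, 87.7% to 97.2%) and 96.5% in MMT 3 (314 counts, 93.8% to 98.2%). MnCl2 libraries had 96.6% (179 counts, 92.8% to 98.8%), 97.6% (209 counts, 94.5% to 99.2%) and 97.7% (213 counts, 94.6% to 99.2%) in MnCl2 1, 2 and 3. Control libraries had 98.0% (556 counts, 96.5% to 99.0%), 97.2% (361 counts, 95.0% to 98.7%) and 97.6% (170 counts, 94.1% to 99.4%) in control 1, 2 and 3. The intervals cover counting error only. The MMT libraries held both the highest and the lowest of the 9 shares, and the ranges of the groups overlapped.

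The arm ratio of miR-320 was then set beside that of other miRNAs, as log2 of 5p counts over 3p counts with 0.5 added to each. Of 282 miRNAs listed with both arms, 137 had at least 50 counts of both arms together in every library. Their 5p arm was the higher one in 77 and the 3p arm in 60. miR-320 stood at rank 32 from the 5p-rich end, with a mean log2 ratio of 5.08 ± 0.67 (SD, n = 9 libraries). Just above it were miR-194 at 5.43 ± 1.18 and miR-98, of the let-7 family, at 5.21 ± 0.29, and just below it were miR-497, of the miR-15/16 family, at 5.04 ± 0.72 and miR-324 at 4.91 ± 0.82. The median size of the log2 ratio, regardless of sign, was 4.00 over the 137 miRNAs, and 53 of them, miR-320 included, had one as large as that of miR-320 or larger.

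**Figure D1:**
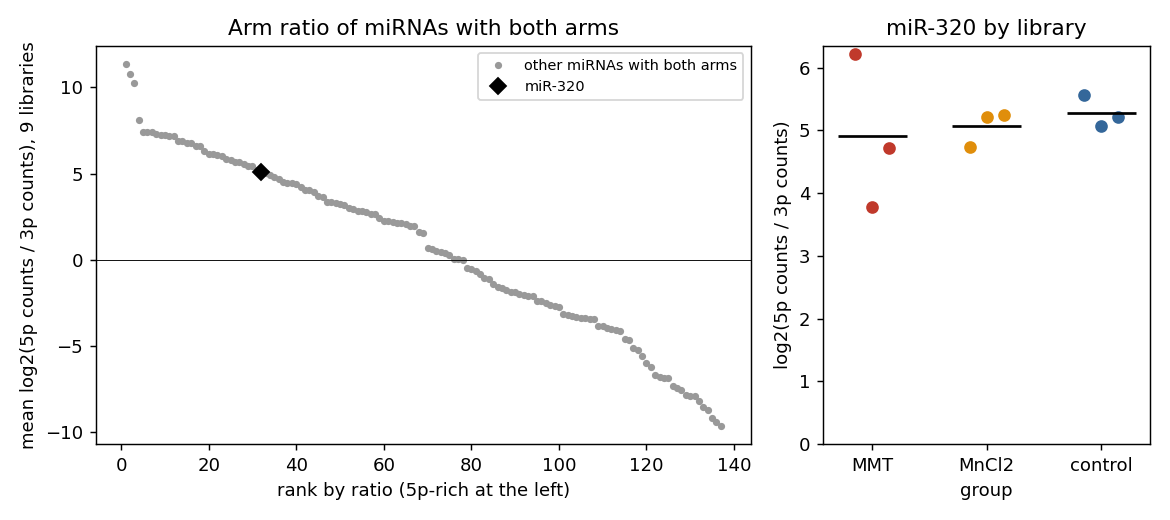
Left: mean log2 ratio of 5p to 3p counts over 9 libraries for each of the 137 miRNAs with both arms, ordered by rank, with miR-320 as a diamond at rank 32. Right: the log2 ratio of miR-320 in each library by group, with the group mean as a line. The MMT libraries are the most spread, from 3.78 to 6.22.

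No difference in the arm ratio was found between the groups. The mean log2 ratio was 4.91 ± 1.23 in MMT libraries, 5.07 ± 0.28 in MnCl2 libraries and 5.28 ± 0.26 in control libraries (SD, n = 3 each). MnCl2 libraries differed from control libraries by -0.21 (SE 0.58, 95% interval -1.57 to 1.14, limma adjusted p = 0.934 over 137 miRNAs). This SE pools the spread of all 3 groups, MMT included. Fitted on MnCl2 and control libraries alone, it was 0.32 (limma adjusted p = 0.903). MMT libraries differed from MnCl2 libraries by -0.16 (SE 0.58, interval -1.51 to 1.19, limma adjusted p = 0.969). limma called 0% of the 137 ratios in each of these comparisons, with 1 and 3 below 0.05 before correction. MMT libraries differed from control libraries by -0.37 (SE 0.58), which is given as a description because miR-320 was picked for that contrast. The spread of the MMT group came from MMT 1, with 3 counts of miR-320-3p, and MMT 2, with 8. Without MMT 2 the difference of MMT from control was 0.19 and that of MMT from MnCl2 was 0.41, so both directions rested on that library.

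The 5p arm had its lowest mean level in MMT, then MnCl2, then control. In MMT libraries miR-320-5p was at 222, 146 and 215 CPM (261, 116 and 303 counts in MMT 1, 2 and 3). In MnCl2 libraries it was at 239, 199.5 and 218 CPM (173, 204 and 208 counts in MnCl2 1, 2 and 3). In control libraries it was at 303, 343 and 253 CPM (545, 351 and 166 counts in control 1, 2 and 3). All 6 libraries of manganese-dosed rats lay below all 3 control libraries, while the MMT and MnCl2 ranges overlapped. The same order held for 13 of the 1113 entries past the low-count filter (1.17%). As miR-320-5p was picked with its MMT result known, its separation is a description. The gap was narrow at its nearest point, between MnCl2 1 and control 3, whose 95% Poisson intervals of 205 to 278 CPM and 216 to 294 CPM overlapped. The same separation held with RLE, total-count and miRNA-only scaling.

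**Figure D2:**
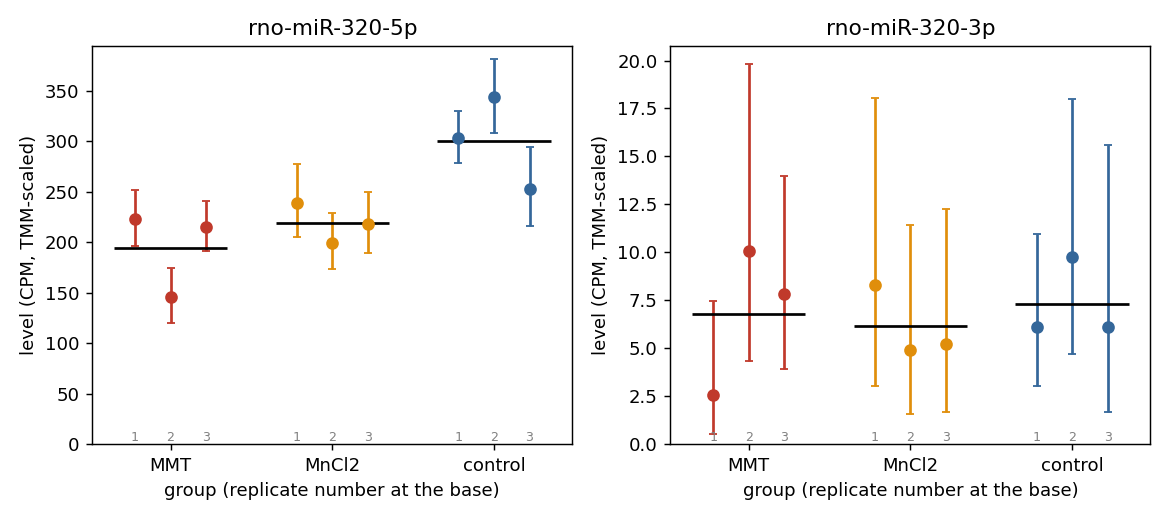
Level of miR-320-5p (left) and miR-320-3p (right) in each library in TMM-scaled CPM, with the 95% Poisson interval of its count as a bar and the group mean as a line. The 5p arm is at 239 CPM or less in all MMT and MnCl2 libraries and at 253 CPM or more in all control libraries, whereas the 3p arm overlaps between groups and has wide intervals.

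The group means of miR-320-5p were 194.5 ± 42.4 CPM in MMT, 219 ± 19.8 CPM in MnCl2 and 299.7 ± 45.5 CPM in control libraries (SD, n = 3 each). The spread within groups, as a coefficient of variation, was 21.8%, 9.06% and 15.2%. Counting error alone gives 6.64%, 7.16% and 5.31% at the mean count of each group, in the order MMT, MnCl2 and control. The observed spread was above this in each group, and least so in MnCl2. In these counts a lower level per cell and fewer cells carrying the miRNA cannot be told apart.

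The entry was picked with its MMT result known, so its values against control are a description. The log2 fold change of MMT over control was -0.62 (SE 0.18, from edgeR). This is 0.65 times the control level. Of 1113 entries past the low-count filter, 2.79% had all 3 MMT libraries below all 3 control libraries, and edgeR called 0% at an adjusted p under 0.05. Before correction, 22 entries were lower and 2 higher at p under 0.05 with edgeR, a count that moved to 59 (26 higher) with the log2 total as a covariate, 41 (17 higher) without control 1 and 9 (2 higher) without control 2. Without MMT 2, the lowest library, the log2 fold change was -0.44.

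MnCl2 against control used the same control libraries, so it is no independent repeat. The log2 fold change of miR-320-5p was -0.46 (SE 0.18, 95% interval -0.86 to -0.05), or 0.73 times the control level, and did not pass correction (edgeR adjusted p = 0.843 over 1113 entries). Before correction it was among the 3.14% of entries that were lower at p under 0.05. All 3 MnCl2 libraries lay below all 3 control libraries, as they did for 4.94% of the entries tested. edgeR called 0% of entries at an adjusted p under 0.05, against 35 lower and 16 higher before correction, and DESeq2 called 0 in all 3 comparisons. The balance of higher and lower entries turned under several alternatives, among them with the log2 total as a covariate (114, of which 78 higher) and without MnCl2 2 (40, of which 29 higher), and 157 entries were below 0.05 without control 3 (63 higher). Among the 615 miRNAs tested, 6 had a fold change this low or lower, miR-320-5p included. Among the 126 miRNAs between 100 and 1000 CPM it was the only one. In MMT over control, 19 of the 615 miRNAs were as low as miR-320-5p or lower, itself included. The entry was picked with its MMT result against these same control libraries known, so these ranks are a description.

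MMT and MnCl2 libraries did not differ in miR-320-5p beyond their spread. The log2 fold change of MMT over MnCl2 was -0.16 (SE 0.18, 95% interval -0.57 to 0.24, edgeR adjusted p = 0.981). edgeR called 0% of 1113 entries here, against 7 lower and 15 higher before correction. That balance turned under several alternatives, among them with the log2 total as a covariate (40, of which 14 higher) and without control 1 (50, of which 16 higher). Without MMT 2 it turned to 0.075.

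The scale of these differences depended on what the libraries were scaled to. With TMM over all entries, the median log2 fold change of the 615 miRNAs was 0.04 in MMT and 0.23 in MnCl2, each over control. With miRNAs scaled alone it was -0.10 and -0.05. Relative to the miRNA median, miR-320-5p was at -0.66 in MMT over control and -0.69 in MnCl2 over control with TMM over all entries, and at -0.67 and -0.68 with miRNAs scaled alone. On this relative scale MMT over MnCl2 was 0.03 and 0.02.

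**Figure D3:**
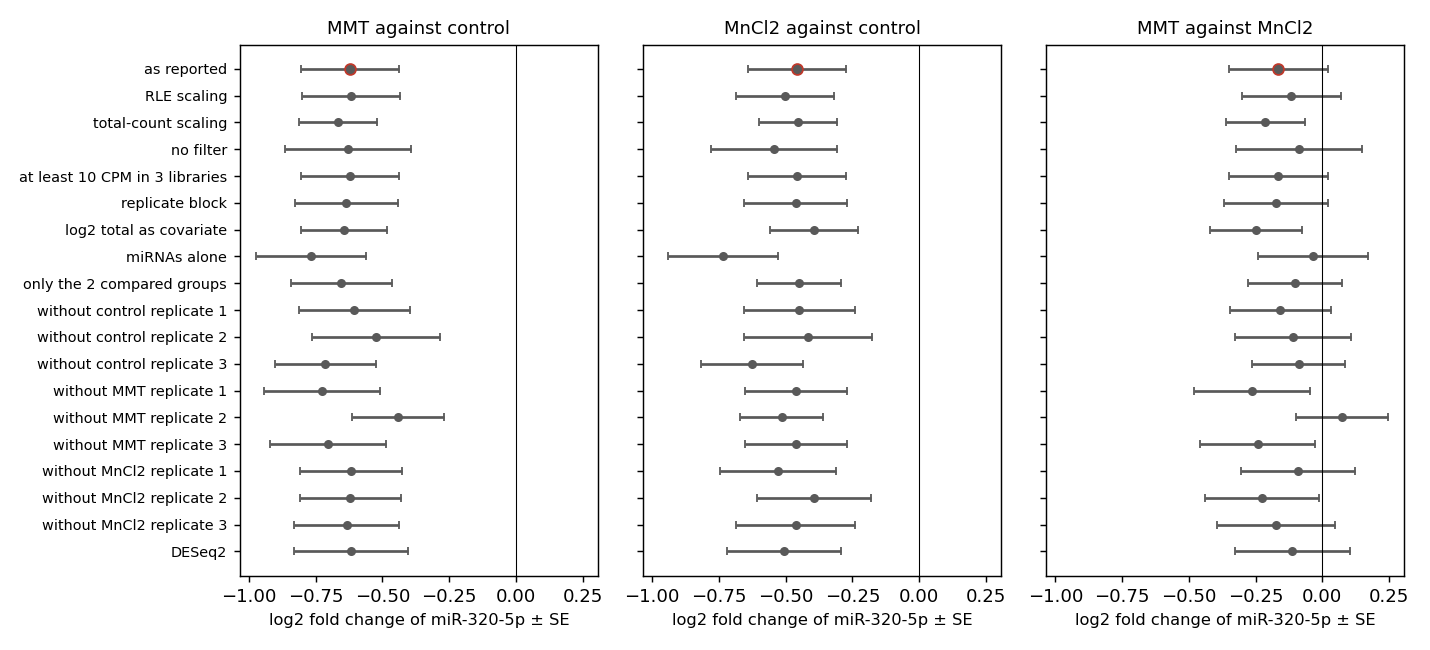
Log2 fold change of miR-320-5p with its standard error (bars) in the 3 comparisons, as reported (top point) and under each alternative processing. All values against control are below 0, in refits of the same libraries in which miR-320-5p was picked. MMT against MnCl2 turns above 0 without MMT replicate 2.

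Over all 9 libraries, 13 of 1113 entries (1.17%) had every MMT and MnCl2 library below every control library. Of these 3 were miRNAs, out of 615 miRNAs tested, namely miR-320-5p, miR-31b and miR-301b-3p. miR-320-5p was picked with its MMT result known, so its place among them is a description. miR-31b was the miRNA nearest to it in pattern over these same libraries, and miR-301b-3p was singled out after its values were seen. miR-31b averaged 22.8 ± 0.21 CPM in MMT, 23.2 ± 2.33 CPM in MnCl2 and 32.6 ± 2.71 CPM in control libraries (SD, n = 3 each). miR-301b-3p averaged 24.2 ± 1.31, 42.0 ± 4.36 and 52.4 ± 6 CPM in MMT, MnCl2 and control libraries. miR-320-5p, at 145 in rank, was the most abundant of the 3.

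The scarce arm did not show this separation. miR-320-3p had 3, 8 and 11 counts in MMT libraries (2.56, 10.0 and 7.82 CPM), 6, 5 and 5 counts in MnCl2 libraries (8.29, 4.89 and 5.25 CPM) and 11, 10 and 4 counts in control libraries (6.12, 9.78 and 6.09 CPM). The highest and the lowest value were both in MMT libraries and the groups overlapped. Group means were 6.81 ± 3.85 CPM in MMT, 6.14 ± 1.87 CPM in MnCl2 and 7.33 ± 2.12 CPM in control libraries (SD, n = 3 each). The 3p arm did not pass the low-count filter and has no main test. Tested without that filter, its log2 fold change of MnCl2 over control was -0.35 (SE 0.81, 95% interval -1.95 to 1.24, edgeR adjusted p = 0.944). For MMT over MnCl2 it was 0.19 (SE 0.82, interval -1.41 to 1.80, edgeR adjusted p = 1). Both directions rested on 1 library, since the log2 ratio of the group means turned to 0.0098 in MnCl2 over control without control 2 and to -0.24 in MMT over MnCl2 without MMT 2. A change of the size seen in the 5p arm was not detectable in the 3p arm at this depth.

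No relation of either arm with library depth was found. The log2 level of miR-320-5p correlated with the log2 total at Pearson r = 0.333 (exact permutation p = 0.383) and Spearman rho = 0.25 (exact permutation p = 0.521, n = 9). For miR-320-3p Pearson r was -0.223 (exact permutation p = 0.564) and rho -0.183 (exact permutation p = 0.644), and for the arm ratio r was 0.41 (exact permutation p = 0.267) and rho 0.417 (exact permutation p = 0.27). Adjusted over the 3 measures, the exact permutation p was 0.564 for each Pearson r and 0.644 for each Spearman rho. Without control 1 and control 3, which had the totals farthest from the median, r was 0.273, -0.376 and 0.491 (exact permutation p = 0.568, 0.412 and 0.242, n = 7). The labels give no sequencing batch, and 3 libraries a group are too few for a correlation within groups. With the log2 total as a covariate, the log2 fold change of miR-320-5p was -0.64 in MMT and -0.39 in MnCl2, each over control.

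Likeness in pattern was measured as the mean absolute difference between centred log2 levels over the 9 libraries, among 399 other miRNAs at 20 CPM or more. Closest to miR-320-5p were miR-31b at 0.156, miR-376c-5p at 0.158 and miR-377-5p at 0.174, against a median of 0.351. miR-376c-5p averaged 26.2 ± 5.66 CPM in MMT, 36.8 ± 11.2 CPM in MnCl2 and 37.5 ± 3.28 CPM in control libraries. miR-377-5p averaged 102.5 ± 30.9, 100.6 ± 17.3 and 114.1 ± 12.6 CPM in the same order (SD, n = 3 each). These 3 were chosen for their likeness over the same libraries, so where they match miR-320-5p is given by the choice. Closest to miR-320-3p were miR-410-3p at 0.168, miR-539-5p at 0.23 and miR-153-5p at 0.255, against a median of 0.436, a comparison that its 3 to 11 counts leave imprecise.

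**Figure D4:**
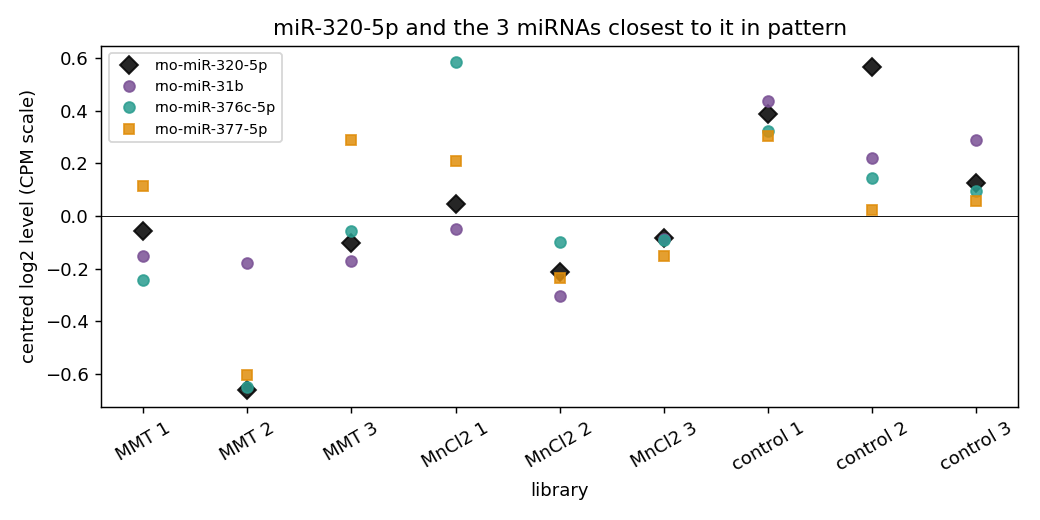
Centred log2 level of miR-320-5p (diamonds) and of the 3 miRNAs closest to it in pattern in each of 9 libraries. All 4 are above their own mean in the 3 control libraries and below it in MMT 2, as their choice for likeness leads to.

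Other miRNAs that bypass a standard processing step were mostly scarce in these libraries. The list held 14 entries of 8 families with miR-320 included, of which 8 entries passed the low-count filter. miR-484, the other capped hairpin that skips Drosha, had 3 to 9 counts in MMT, 2 to 5 in MnCl2 and 1 to 2 in control libraries and did not pass. The mirtrons, which the splicing machinery cuts from introns, did not pass either, with 22 counts in all libraries together for miR-877, 50 for miR-702-3p, 23 for miR-702-5p and 19 for miR-1224. The snoRNA-derived miR-1839-5p was of like abundance to miR-320-5p, at 165 ± 24.6 CPM in MMT, 157 ± 18.6 CPM in MnCl2 and 160 ± 42.8 CPM in control libraries (SD, n = 3 each). The 5p share of its counts was 91.5%, beside 81.6% for miR-451 and 31.5% for the 3p-rich miR-702. Its log2 fold change was 0.05 (SE 0.21) in MMT over control and -0.03 (SE 0.21) in MnCl2 over control, with edgeR adjusted p-values of 1 and 0.991. All 3 groups overlapped for it.

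miR-451-5p, an erythroid miRNA that Argonaute 2 cuts in place of Dicer, averaged 41.6 ± 7.46 CPM in MMT, 49.3 ± 26 CPM in MnCl2 and 45.0 ± 15.3 CPM in control libraries. The snoRNA-derived miR-664-2-5p averaged 21.8 ± 7.35, 30.3 ± 9.67 and 35.6 ± 23.1 CPM in the same order (SD, n = 3 each). Other miR-664 entries were ordered differently. miR-664-1-5p averaged 14.45 ± 7.78, 22.8 ± 4.71 and 20.5 ± 16.6 CPM, and miR-664-3p 19.0 ± 1.52, 23.3 ± 13.5 and 17.0 ± 6.83 CPM. Over the 7 tested entries other than miR-320-5p, log2 fold changes ran from -0.68 to 0.20 in MMT over control, with 4 positive, and from -0.19 to 0.54 in MnCl2 over control, with 5 positive. In MMT over MnCl2 they ran from -0.69 to 0.08, with 1 positive. Their medians were 0.05, 0.23 and -0.27, beside 0.01, 0.06 and -0.06 over all 1113 entries. Over the 615 miRNAs tested the medians were 0.04, 0.23 and -0.19, so those of the 7 lay near the miRNAs as a class. edgeR called 0 of the 7 in each comparison, as it called 0% of all 1113 entries, and 0 of the 7 were below 0.05 before correction.

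**Figure D5:**
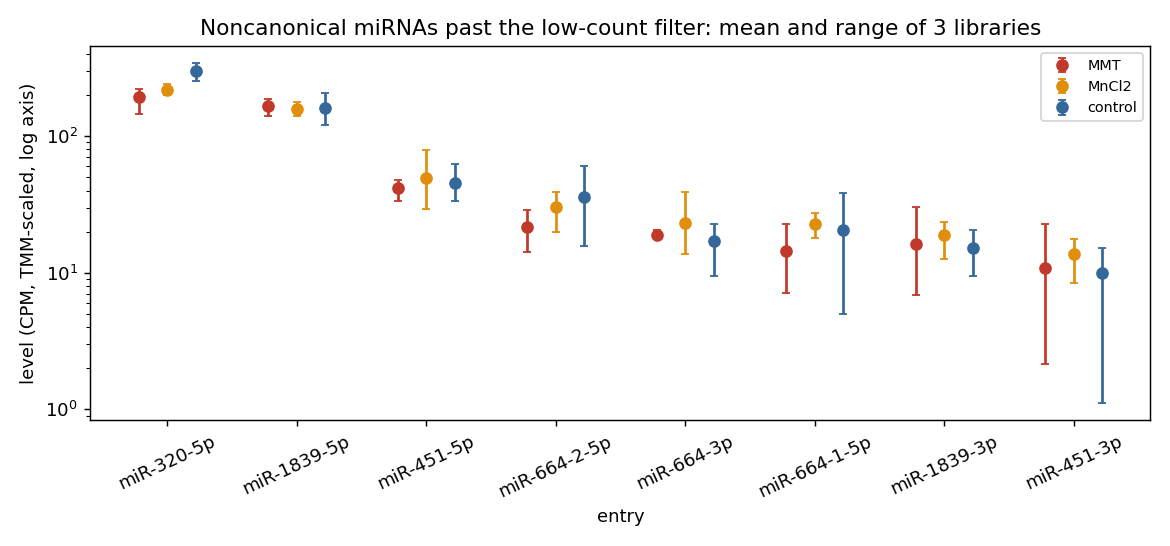
Mean level with the range of 3 libraries (bars), in TMM-scaled CPM on a log axis, for the 8 noncanonical entries past the low-count filter in MMT, MnCl2 and control libraries. The control range lies above both others for miR-320-5p, and the ranges overlap for miR-1839-5p, miR-451-5p and miR-664-2-5p.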

How the data were processed

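The authors deposited raw counts per small RNA entry for 9 libraries, without normalization, as whole numbers and unequal totals show. Per the labels' protocols, TRIzol RNA of 15 to 45 nucleotides was cut from a gel and made into libraries with the QIAseq miRNA kit, whose molecular identifiers allow PCR copies to be removed. The submitters' processing notes name Trimmomatic, with no version, and the build rn6. No source used here gives the aligner, the mismatches allowed or whether identifiers were used. PCR copies, if left in, make the counting intervals too narrow. Coordinates of the GRCr8 table were not used.

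The main test was edgeR's robust quasi-likelihood fit (edgeR 4.0.16, R 4.3.3) over all 9 libraries, with TMM scaling and Benjamini-Hochberg adjustment at 0.05. Its filterByExpr step kept 1113 entries. The SE is the size of the log2 fold change divided by the root of F. Log2 arm ratios were tested with limma 3.58.1. Alternatives were DESeq2 1.42.0, other scalings, filters and pseudocounts, the 2 compared groups alone, a replicate block, the total as a covariate and each library left out. The tests were tried on simulated data first, for MMT against control. With entries shifted by a factor of 1.5, edgeR recovered 14% of them. Recovery rose to 39.3% when the factor was 2 and to 98.7% when it was 4. For arm ratios, limma recovered 43.3% at a log2 shift of 1 and 91.7% at 2. Shifts by a factor of 1.5 were thus mostly missed by edgeR, and a lack of calls does not exclude them. Levels and plots came from Python 3.11.15 (scipy 1.17.1, numpy 2.4.6, matplotlib 3.10.9, pandas 2.3.3).

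The members, lists and tests were chosen with earlier results of these data known. Entries named by rule were both arms, the noncanonical list, the 3 miRNAs of nearest pattern per arm and the 2 neighbours on each side in arm ratio. Cell type markers were named besides, as was miR-301b-3p, after its values were seen. The centred levels used log2 of CPM plus the worth of 2 counts.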

Additional observations from a re-analysis of the deposited data

How the results depend on the processing

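Over 18 alternatives in each comparison, miR-320-5p stayed below control in all of them, from -0.77 to -0.44 (log2) in MMT and from -0.73 to -0.39 in MnCl2, where edgeR or DESeq2 adjusted p-values ran from 0.235 to 0.998. Leaving out 1 library gave -0.73 to -0.44 and -0.63 to -0.39. The entry was picked with its MMT result known and these refits reuse the same libraries, so the steady sign is no further support. MMT against MnCl2 ran from -0.26 to 0.075 with 1 library left out, and reversed, to 0.075, without MMT 2. The arm ratio reversed without MMT 2, to 0.19 against control and 0.41 against MnCl2, and ranged from -1.03 to 0.19, from -0.32 to -0.05 (MnCl2 against control) and from -0.82 to 0.41 over all left-out libraries. The miR-320-3p log2 ratio of means (-0.11 in MMT and -0.25 in MnCl2 over control, 0.15 in MMT over MnCl2) ranged from -0.50 to 0.29, from -0.53 to 0.0098 and from -0.24 to 0.54. It reversed without MMT 1 (0.29) or control 2 (0.16) in MMT over control, without control 2 (0.0098) in MnCl2 over control and without MMT 2 (-0.24) in MMT over MnCl2. Without the low-count filter 1 entry, not a miR-320 arm, was called in MnCl2 against control (0 with it). All other counts of calls were 0. The filter of 10 CPM in 3 libraries kept the same number of entries, 1113. Replicate numbers are shared between groups, but deviations of same-numbered libraries correlated from -0.67 to 0.49, with 4 of 9 pairs over 0.1, so the numbers were not taken to pair the libraries. With the replicate number as a block, edgeR called 0 entries in each comparison and miR-320-5p stood at -0.63, -0.46 and -0.17, while limma called 0 arm ratios. Exact permutation of the arm ratio gave p = 0.6 for MnCl2 against control and p = 0.9 for MMT against MnCl2, where 3 against 3 allows none below 0.1. The 3 to 11 counts of miR-320-3p limit every statement on that arm and on the ratio.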
